A study of Irpex lacteus with 9 samples.

Results

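The sugar transporter family described here is a set of 48 genes of the white-rot fungus *Irpex lacteus*, out of 19212 genes in the deposited table. A gene belongs to it if its Pfam annotation, a catalogue of protein domains, reads "Sugar (and other) transporter", or if its Swiss-Prot best hit is called a hexose or sugar transporter, a lactose permease or a maltose permease. Genes annotated with siderophore or itaconate transport were to be left out, which removed 0 genes; 3 siderochrome iron transporters do not carry those words and stayed in. All 48 members carry the Pfam domain, and 7 of them also match by product name. The fungus was grown on wheat straw that received ammonium chloride (NH4Cl), sodium nitrate (NaNO3) or distilled water, the control. Each condition has 3 libraries of polyadenylated RNA. The labels give no strain, dose, culture time or pooling. The series' design text calls the fungus *Tricholoma album*; here the name in the organism field and the title is used.

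Sugar transporters of this domain family are membrane proteins of the major facilitator superfamily, whose members move small solutes across a membrane, either downhill or together with a proton. In fungi that live on wood and straw they take up the glucose, xylose and short glucans that secreted enzymes release from cellulose and hemicellulose. Bakers' yeast has a large set of hexose transporters with different affinities, and its low-affinity and high-affinity forms are made at different glucose levels. The domain is shared with carriers of other solutes, such as quinate, inositol, phosphate and glycerophosphodiesters.

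The product names show that breadth. Of the 48 members, 13 are named after hexose transporters, 4 after the lactose permease of *Kluyveromyces lactis* and 1 after yeast STL1, a glycerol carrier. Quinate permeases account for 5 members, an inositol transporter for 1 and carboxylic acid transporters for 2. A further 7 are named as phosphate transporters, 4 as permeases for glycerophosphodiesters, 3 as those siderochrome transporters and 6 as other carriers, and 2 have no Swiss-Prot name. These names come from best hits in yeasts and moulds, and no transport by the *I. lacteus* proteins was measured. In the KEGG annotation, used only for the exclusion words, 22 members carry the term for sugar:H+ symporters and 13 that for inorganic phosphate transporters. The 2 HXT2-named genes share the KEGG myo-inositol transporter term with the inositol-named gene. For 5 members the KEGG term is no transporter. These are the STL1-named gene (a transcription factor subunit), the oryC-named BC629DRAFT_1438794 (dihydrolipoamide dehydrogenase), and the siderochrome transporters BC629DRAFT_1583251 and BC629DRAFT_1621796 (5'-nucleotidase) and BC629DRAFT_765913 (a glucanosyltransferase).

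Of the 48 members, 45 had enough counts to be tested among 14808 genes. The lactose permease BC629DRAFT_1594379 had 0 counts in all 9 libraries. NewGene_823, without a product name, had 3, 11 and 9 counts in the NH4Cl libraries, 10, 4 and 9 in the NaNO3 libraries and 8, 7 and 5 in the water libraries. The quinate permease NewGene_722 had 5, 0 and 286 counts in the NH4Cl libraries, 0 in every NaNO3 library, and 22, 0 and 0 in the water libraries, so nearly all of its counts lay in NH4Cl replicate 3.

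The libraries held 17896230 to 23194078 counts, and 2 of them stood apart in the enzymes of straw breakdown. The 35 genes named as cellulases took 0.0234%, 0.0380% and 1.31% of the counts in the NH4Cl libraries, 0.436%, 0.0362% and 0.200% in the NaNO3 libraries, and 0.0942%, 0.139% and 0.0231% in the water libraries. The 16 class II peroxidases, enzymes that attack lignin, took 2.54% of the counts in NH4Cl replicate 3 and 0.888% in NaNO3 replicate 1, against 4.54% to 6.88% in the other 7 libraries. The labels and headers name no batch. Because RNA was read in bulk, fewer fungal cells of one kind and less RNA per cell cannot be told apart. Several transporter fold changes rest on NaNO3 replicate 1 or NH4Cl replicate 3, and values without those libraries are given beside them.

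Few members differed between conditions beyond the spread between replicates. A gene was called when its adjusted p (edgeR's quasi-likelihood test, Benjamini-Hochberg over all genes tested) was under 0.05. In NaNO3 against water, 1 of the 45 members was called, and it was lower, where 5.06% of all genes tested were called, 3.88% lower and 1.18% higher. In NH4Cl against water, 0 members were called by edgeR, where 0.675% of all genes were, and in NH4Cl against NaNO3 also 0, where 1.09% were.

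Before adjustment, at a p under 0.05 by edgeR, 2 members were higher with NH4Cl than with water, where 7.77% of all genes were, and 5 were lower, where 11.0% were. Those 7 members make 15.6% of the family, against 18.8% of all genes. In NaNO3 against water 6 members were higher, against 10.8% of all genes, and 4 lower, against 14.0%. They make 22.2% of the family, against 24.7% of all genes. With NH4Cl against NaNO3 there were 6 higher members, against 10.9% of all genes, and 7 lower ones, against 10.2%. They make 28.9% of the family, against 21.1% of all genes.

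DESeq2, another count test, called 2 members in NH4Cl against water, 4 in NaNO3 against water and 2 between NH4Cl and NaNO3, where it called 8.69%, 12.9% and 9.73% of all genes. Without NH4Cl replicate 3 and NaNO3 replicate 1, edgeR called 3, 1 and 1 members in the same order, against 5.13%, 7.39% and 5.43% of all genes. The authors' deposited table calls 2, 1 and 0 members, against 3.19%, 4.85% and 2.18% of its genes.

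The replicates of the groups compared did not overlap for 11 members in NH4Cl against water, against 28.0% of all genes. Of these, 4 were higher, against 11.9% of all genes, and 7 lower, against 16.1%. In NaNO3 against water this held for 8 members, against 33.0% of all genes, with 5 higher, against 14.2%, and 3 lower, against 18.8%. In NH4Cl against NaNO3 it held for 11 members, against 25.2% of all genes, with 7 higher, against 12.9%, and 4 lower, against 12.4%.

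The median log2 fold change of the tested members was −0.08 in NH4Cl against water, where that of all genes was −0.02. It was 0.16 in NaNO3 against water, where that of all genes was −0.03, and −0.06 without NaNO3 replicate 1. In NH4Cl against NaNO3 it was −0.29, where that of all genes was 0.02, and without NaNO3 replicate 1 it came to 0.03. Both comparisons with water share the same 3 water libraries.

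**Figure D1:**
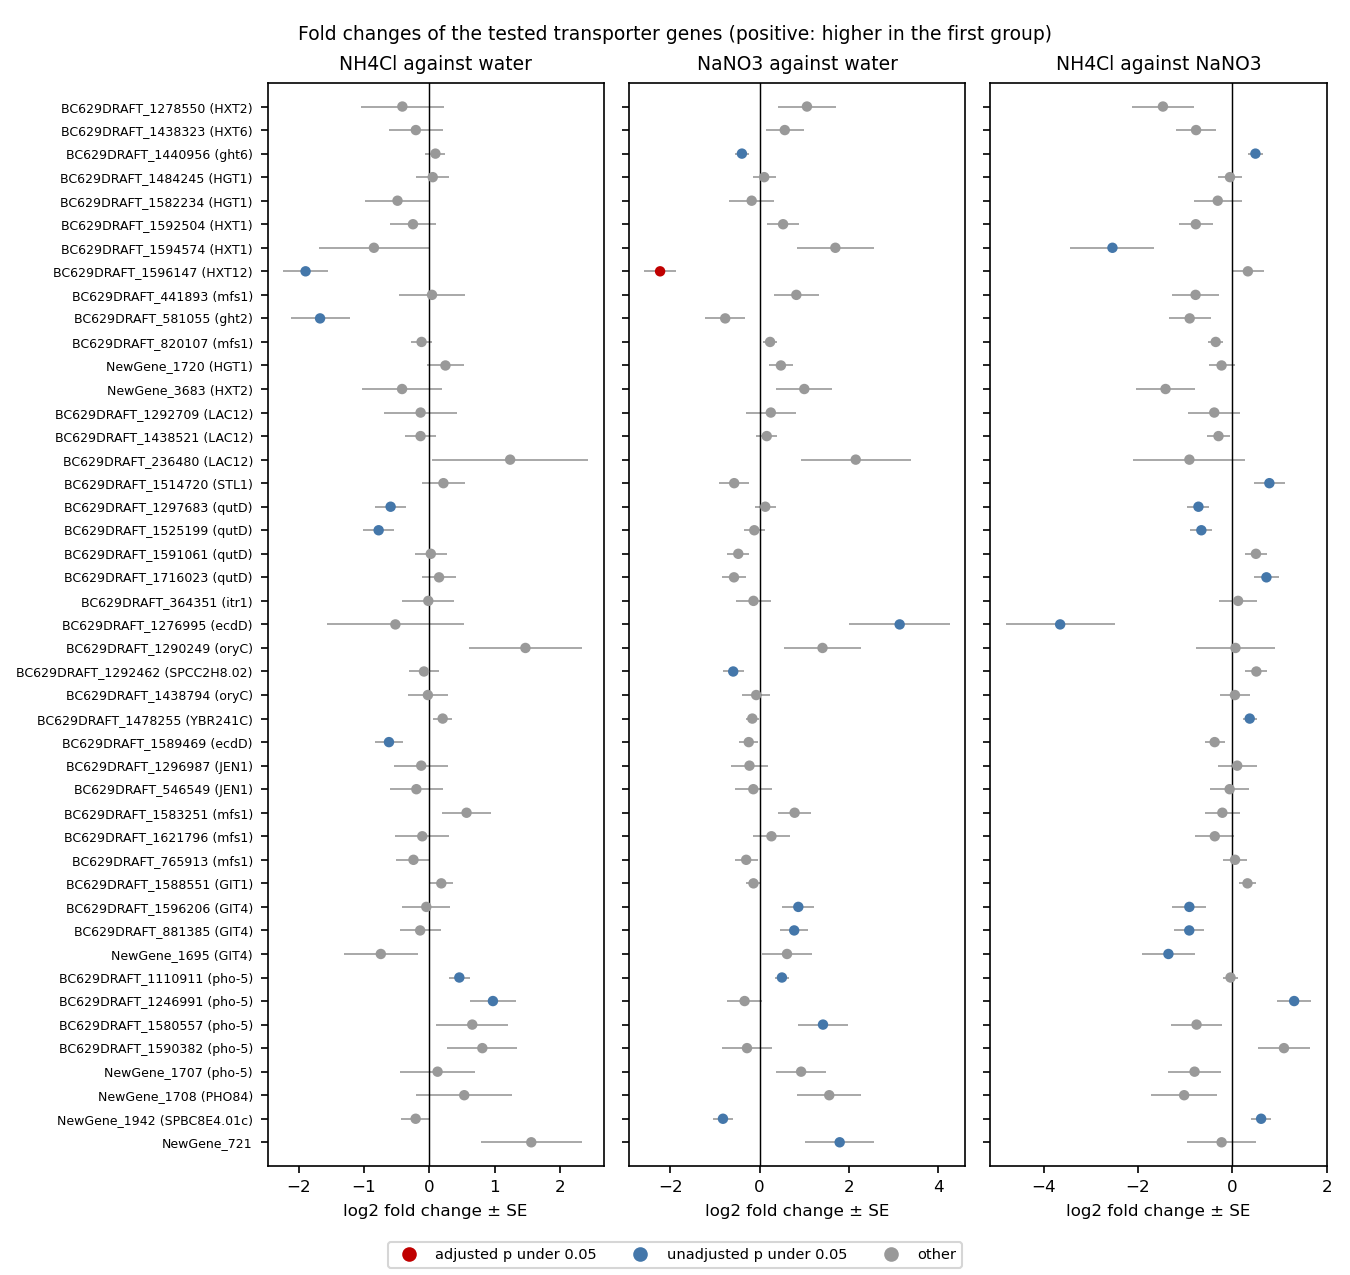
Log2 fold changes (x axis) with their standard errors for the 45 tested members (y axis, grouped by product name), in 1 panel for each of the 3 comparisons; positive values mean higher in the condition named first. The HXT12-named gene in NaNO3 against water, at −2.23, is the 1 member past an adjusted p of 0.05, and the widest bars belong to members that were high in NaNO3 replicate 1 or NH4Cl replicate 3.

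The called member was BC629DRAFT_1596147, named after the putative hexose transporter HXT12 of bakers' yeast. Its level is given in CPM, read counts scaled by library size and by the trimmed mean of M-values (TMM). It had 14.3, 11.3 and 8.99 CPM in the NH4Cl libraries, 7.37, 12.4 and 7.72 CPM in the NaNO3 libraries, and 23.9, 49.6 and 55.1 CPM in the water libraries. All 6 libraries with added nitrogen lay below all 3 water libraries, and the 2 nitrogen groups overlapped. With NaNO3 it fell by 2.23 on the log2 scale relative to water (SE 0.35, adjusted p = 0.02223 by edgeR), a mean of 9.18 ± 2.83 CPM in NaNO3 and 42.9 ± 16.6 CPM in water (SD, n = 3 each).

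With NH4Cl the HXT12-named gene averaged 11.5 ± 2.64 CPM (SD, n = 3), and the log2 fold change against water was −1.90 ± 0.35 (SE, adjusted p = 0.05082 by edgeR), just outside the threshold. NH4Cl against NaNO3 gave 0.33 ± 0.34 (SE, adjusted p = 0.6162 by edgeR), a difference within the spread between replicates. DESeq2 called the gene lower in both comparisons with water, at −1.864 for NH4Cl and −2.183 for NaNO3 (adjusted p = 9.39e-05 and 1.28e-06 by DESeq2). In the authors' deposited table it is also called lower in both comparisons with water, with log2 fold changes of −1.87 for NH4Cl and −2.20 for NaNO3. The gene is named in the family's selection, with its lower level known, so these values describe it and are no independent evidence. Leaving out water replicate 2 or 3, or NaNO3 replicate 2 or 3, ended the NaNO3 call, with adjusted p (edgeR) of 0.0916, 0.0727, 0.0768 and 0.0897 and log2 fold changes from −2.47 to −2.003. Without NaNO3 replicate 1 the NH4Cl difference was called, at −1.85 with an adjusted p of 0.0466 by edgeR.

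A second hexose carrier also had its highest mean with water, with a wider spread. BC629DRAFT_581055, named after ght2, a high-affinity glucose transporter of fission yeast, had 60.0, 50.7 and 102 CPM with NH4Cl, 202, 123 and 72.5 CPM with NaNO3, and 129, 274 and 275 CPM with water. The NH4Cl libraries lay below all water libraries, while the NaNO3 libraries spanned the gap. The log2 fold change was −1.67 ± 0.45 in NH4Cl against water (SE, adjusted p = 0.106 by edgeR) and −0.77 ± 0.44 in NaNO3 against water. DESeq2 called it lower with NH4Cl, at −1.64 with an adjusted p of 0.0103, and the authors' deposited table gives −1.65 with a false discovery rate of 0.0009553. Without NH4Cl replicate 3 and NaNO3 replicate 1 edgeR called it, at −2.01 with an adjusted p of 0.036. The NH4Cl library left out was this gene's highest in its group. That fit called 5.13% of all genes, against 0.675% with all libraries.

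The ght6-named gene BC629DRAFT_1440956, after a high-affinity fructose transporter of fission yeast, was a low but even member. It had 9.09, 7.97 and 7.62 CPM with NH4Cl, 6.01, 5.57 and 5.98 CPM with NaNO3, and 6.46, 8.35 and 8.32 CPM with water. In CPM all NaNO3 libraries were below all others. In FPKM NaNO3 replicate 1, at 4.05, lay above water replicate 1, at 3.51. The log2 fold change was −0.40 ± 0.15 in NaNO3 against water (SE, adjusted p = 0.157 by edgeR) and 0.49 ± 0.15 in NH4Cl against NaNO3 (SE, adjusted p = 0.126 by edgeR), neither called.

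**Figure D2:**
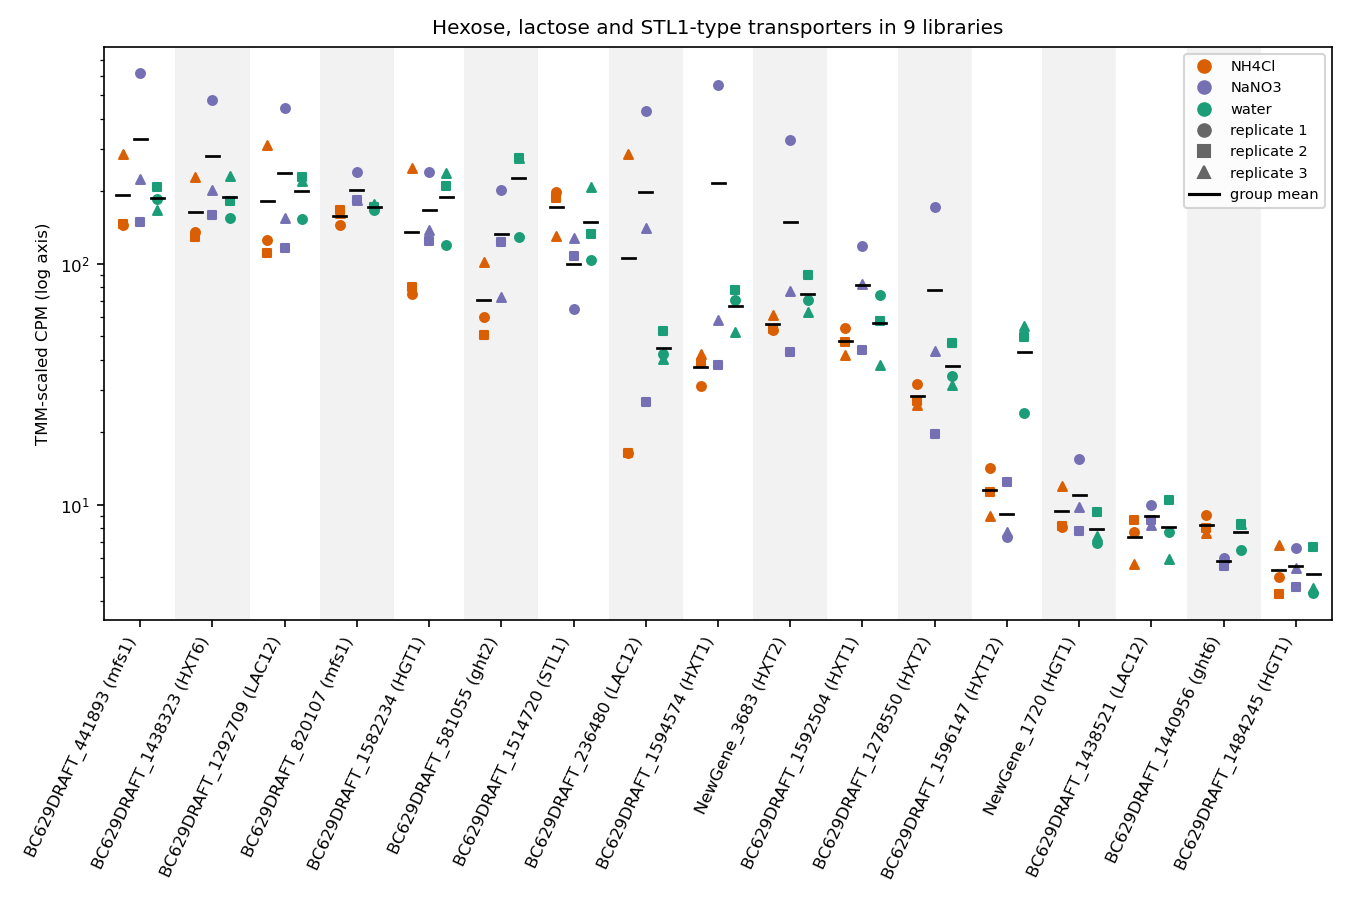
TMM-scaled CPM (y axis, log scale) of the tested hexose, lactose permease and STL1-named members (x axis), with 1 point per library, the condition as colour and NH4Cl, NaNO3 and water from left to right within each gene; black lines are group means. The HXT12-named gene is lower in all 6 nitrogen libraries than in any water library, while BC629DRAFT_1594574 (HXT1), both HXT2-named genes, the HXT6-named gene and BC629DRAFT_441893 (mfs1) each have NaNO3 replicate 1 at more than 2 times any other library.

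Most other hexose carriers shared 1 feature, a high level in NaNO3 replicate 1. BC629DRAFT_1594574, named after HXT1, the low-affinity glucose transporter of bakers' yeast, had 554 CPM in that library and 38.1 and 58.4 CPM in the other NaNO3 libraries. It had 31.0, 38.5 and 42.1 CPM with NH4Cl and 70.7, 78.2 and 52.1 CPM with water. Every NH4Cl library was thus below every water library, and NaNO3 overlapped both. Its log2 fold change in NH4Cl against NaNO3 was −2.54 ± 0.89 (SE, adjusted p = 0.157 by edgeR), and −0.33 without NaNO3 replicate 1. DESeq2 called it in that comparison, at −2.57 with an adjusted p of 0.0214.

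The 2 genes named after HXT2, a high-affinity glucose transporter of bakers' yeast, moved alike. NewGene_3683 had 52.9, 53.7 and 61.3 CPM with NH4Cl, 328, 43.2 and 77.3 CPM with NaNO3, and 71.0, 89.9 and 63.3 CPM with water. BC629DRAFT_1278550 had 31.8, 26.9 and 25.9 CPM with NH4Cl, 171, 19.6 and 43.6 CPM with NaNO3, and 34.3, 46.8 and 31.5 CPM with water. In both genes the second NaNO3 library was the lowest of all 9, so that the highest and the lowest value came from the same condition.

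BC629DRAFT_441893, named after the glucose transporter mfs1 of *Aspergillus flavus*, had 145, 146 and 287 CPM with NH4Cl, 619, 148 and 224 CPM with NaNO3, and 187, 208 and 167 CPM with water. BC629DRAFT_1438323, named after the high-affinity transporter HXT6, had 136, 129 and 228 CPM with NH4Cl, 478 CPM in NaNO3 replicate 1, 159.7 and 202 CPM in the other NaNO3 libraries, and 155, 183 and 231 CPM with water. In these 2 genes NH4Cl replicate 3 was also above its group mates. A second mfs1-named gene, BC629DRAFT_820107, was the steadiest of the well-expressed hexose carriers, with 145, 167 and 163 CPM with NH4Cl, 240.3, 183 and 184 CPM with NaNO3, and 166, 172 and 177 CPM with water. Its NaNO3 libraries did not overlap the water libraries, yet the log2 fold change was 0.23 ± 0.16 (SE, adjusted p = 0.398 by edgeR).

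BC629DRAFT_1582234, named after HGT1, a high-affinity glucose transporter of *Candida albicans*, was high in NH4Cl replicate 3 and NaNO3 replicate 1. It had 75.2, 80.1 and 249.8 CPM with NH4Cl, 241, 124 and 138 CPM with NaNO3, and 119.7, 210.2 and 238 CPM with water. The log2 fold change in NH4Cl against water was −0.49 ± 0.51 (SE, adjusted p = 0.647 by edgeR) with all libraries and −1.27 (adjusted p = 0.0496 by edgeR) without those 2. The remaining 3 hexose carriers were a second HXT1-named gene, BC629DRAFT_1592504, at 37.8 to 118 CPM, and 2 genes named after the *K. lactis* high-affinity glucose transporter, NewGene_1720 at 6.95 to 15.4 CPM and BC629DRAFT_1484245 at 4.27 to 6.81 CPM. None of these 3 had an unadjusted p under 0.05 by edgeR in any of the 3 comparisons.

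The 3 expressed lactose permeases differed in how much their replicates varied. LAC12 of *K. lactis* brings lactose into the cell together with protons. BC629DRAFT_236480 had 16.4, 16.3 and 285 CPM with NH4Cl, 429.7, 26.7 and 141 CPM with NaNO3, and 42.01, 52.4 and 40.2 CPM with water. NH4Cl replicate 3, NaNO3 replicate 1 and NaNO3 replicate 3 were above all water libraries, and the other 3 nitrogen libraries were below them. Its log2 fold changes were 1.24 ± 1.20 in NH4Cl against water and 2.15 ± 1.23 in NaNO3 against water (SE, adjusted p = 0.624 and 0.314 by edgeR). Without NH4Cl replicate 3 the NH4Cl value turned to −1.41 ± 0.92 (SE, adjusted p = 0.4703 by edgeR), and without NaNO3 replicate 1 the NaNO3 value was 0.89 ± 1.199 (SE, adjusted p = 0.7088 by edgeR).

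The same 3 nitrogen libraries held the largest cellulase shares given above. The beta-glucosidase 1B gene BC629DRAFT_364879, whose enzyme splits cellobiose into glucose, had 23.7, 34.3 and 1320.3 CPM with NH4Cl, 4269 CPM in NaNO3 replicate 1, 39.6 and 450.0 CPM in the other NaNO3 libraries, and 111, 111 and 33.4 CPM with water. The part of these libraries' cellulase level in the transporter values was not tested. BC629DRAFT_1292709 had 126, 110.4 and 312 CPM with NH4Cl, 444, 116 and 156 CPM with NaNO3, and 153, 228 and 220.2 CPM with water. The third expressed lactose permease, BC629DRAFT_1438521, stayed between 5.69 and 10.5 CPM in all 9 libraries.

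The STL1-named gene BC629DRAFT_1514720 went the other way in NaNO3 replicate 1, where it was lowest. It had 199, 188 and 130.3 CPM with NH4Cl, 64.8, 108 and 127 CPM with NaNO3, and 104, 133 and 208 CPM with water. Every NH4Cl library was above every NaNO3 library, by a log2 fold change of 0.79 ± 0.33 (SE, adjusted p = 0.218 by edgeR), while the water libraries spanned both.

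Quinate permeases bring in quinate, a plant compound that fungi can use as a carbon source. The quinate permease BC629DRAFT_1591061 had the highest mean level of the family by FPKM, which scales fragments by gene length and library size and so allows genes of different length to be compared. It had 208, 193 and 228 FPKM with NH4Cl, 224, 114 and 126 FPKM with NaNO3, and 154, 188 and 256 FPKM with water. In CPM its NH4Cl libraries, at 346 to 387, were above its NaNO3 libraries, at 219 to 333, with a log2 fold change of 0.50 ± 0.24 (SE, adjusted p = 0.274 by edgeR). The quinate permease BC629DRAFT_1716023 had 58.5, 55.7 and 47.2 CPM with NH4Cl, 24.6, 44.2 and 28.996 CPM with NaNO3, and 38.9, 42.9 and 63.6 CPM with water, and its log2 fold change in NH4Cl against NaNO3 was 0.72 ± 0.26 (SE, adjusted p = 0.164 by edgeR).

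The other 2 tested quinate permeases were low with NH4Cl. BC629DRAFT_1297683 had 44.6, 42.1 and 40.4 CPM with NH4Cl, 95.8, 49.5 and 63.9 CPM with NaNO3, and 54.7, 65.4 and 71.7 CPM with water. BC629DRAFT_1525199 had 17.2, 14.3 and 17.9 CPM with NH4Cl, 35.4, 20.2 and 22.2 CPM with NaNO3, and 23.2, 32.8 and 28.6 CPM with water. In CPM all NH4Cl libraries of both genes were below all NaNO3 and all water libraries. In FPKM NH4Cl replicate 3 of BC629DRAFT_1525199, at 8.44, lay above NaNO3 replicate 2, at 8.09. Against water the log2 fold changes were −0.59 ± 0.23 and −0.78 ± 0.23 (SE, adjusted p = 0.22 and 0.133 by edgeR), and against NaNO3 −0.72 ± 0.23 and −0.66 ± 0.23 (SE, adjusted p = 0.136 and 0.161 by edgeR). Without NaNO3 replicate 1 the differences from NaNO3 were −0.38 and −0.32. Without NH4Cl replicate 3 and NaNO3 replicate 1, BC629DRAFT_1525199 was called lower in NH4Cl against water, at −0.83 with an adjusted p of 0.0498 by edgeR. The 4 quinate permeases thus did not share a direction in NH4Cl against NaNO3, with 2 positive and 2 negative fold changes, none called. The inositol transporter BC629DRAFT_364351 ranged from 11.8 to 32.0 CPM, and all 3 of its fold changes were within 0.14 of 0 on the log2 scale.

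Among the other carriers, the 2 genes named after ecdD, a transporter of the echinocandin cluster of *Aspergillus rugulosus*, had unlike patterns. BC629DRAFT_1276995 had 8.98, 9.17 and 17.8 CPM with NH4Cl, 405, 9.35 and 37.6 CPM with NaNO3, and 16.2, 18.2 and 17.1 CPM with water, so its NaNO3 libraries lay both below and above every water library. The log2 fold change in NaNO3 against water was 3.13 ± 1.12 (SE, adjusted p = 0.134 by edgeR), the largest positive one of the family, and 0.45 without NaNO3 replicate 1. DESeq2 called it there, at 3.19 with an adjusted p of 0.0114, and in NH4Cl against NaNO3, at −3.68 with an adjusted p of 0.00367. That second fold change was −3.65 ± 1.15 (SE, adjusted p = 0.127) by edgeR and −0.92 without NaNO3 replicate 1.

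BC629DRAFT_1589469, the other ecdD-named gene, had 217, 179 and 173 CPM with NH4Cl, 299, 217 and 222 CPM with NaNO3, and 227, 322 and 325 CPM with water. Its NH4Cl libraries lay below all water libraries, with a log2 fold change of −0.62 ± 0.21 (SE, adjusted p = 0.172 by edgeR). The oryC-named gene BC629DRAFT_1290249, after a transporter of the oryzine cluster of *Aspergillus oryzae*, had 17.8, 20.3 and 137 CPM with NH4Cl, 101, 21.4 and 44.7 CPM with NaNO3, and 30.1, 21.8 and 11.2 CPM with water, high again in the libraries with high cellulase shares. BC629DRAFT_1292462, named as a probable metabolite transporter of fission yeast, had 83.6, 123 and 129 CPM with NH4Cl, 74.0, 89.2 and 72.8 CPM with NaNO3, and 85.7, 136 and 134 CPM with water, with a log2 fold change of −0.59 ± 0.24 in NaNO3 against water (SE, adjusted p = 0.169 by edgeR). The second oryC-named gene, BC629DRAFT_1438794, lay at 51.7 to 135 CPM and the YBR241C-named gene, BC629DRAFT_1478255, at 6.51 to 10.1 CPM.

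The carboxylic acid carriers were among the most abundant members. JEN1 of bakers' yeast, after which both are named, takes up lactate and pyruvate. BC629DRAFT_1296987 had 199, 231 and 127 FPKM with NH4Cl, 115, 224 and 177 FPKM with NaNO3, and 128, 183 and 282 FPKM with water, the second highest mean of the family. BC629DRAFT_546549 followed with 170.2, 183 and 99.9 FPKM with NH4Cl, 104, 199.6 and 166 FPKM with NaNO3, and 115, 157 and 236 FPKM with water. Both were low in NH4Cl replicate 3 and NaNO3 replicate 1, the libraries in which 2 of the lactose permeases were high. None of their 6 fold changes exceeded 0.23 in size on the log2 scale. Of the 3 siderochrome transporters, carriers of iron chelates, BC629DRAFT_1621796 had 137, 110.1 and 77.7 CPM with NH4Cl, 61.5, 177 and 182 CPM with NaNO3, and 136, 134 and 80.3 CPM with water. It too was lowest in NaNO3 replicate 1. The other siderochrome transporters, BC629DRAFT_1583251 and BC629DRAFT_765913, had at most 12.02 and 5.75 CPM.

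Permeases for glycerophosphodiesters, which in *C. albicans* bring in breakdown products of membrane lipids as sources of phosphate, gave 3 genes with positive fold changes in NaNO3 against water and negative ones in NH4Cl against NaNO3. BC629DRAFT_881385, named after the glycerophosphocholine permease GIT4, had 17.2, 20.1 and 33.3 CPM with NH4Cl, 61.7, 30.5 and 40.8 CPM with NaNO3, and 24.6, 30.3 and 22.9 CPM with water. In CPM all NaNO3 libraries were above all water libraries, but narrowly, with NaNO3 replicate 2 at 30.46 and water replicate 2 at 30.29. In FPKM that NaNO3 library, at 14.2, lay below that water library, at 15.2. The log2 fold change was 0.77 ± 0.31 in NaNO3 against water (SE, adjusted p = 0.173 by edgeR) and −0.91 ± 0.31 in NH4Cl against NaNO3 (SE, adjusted p = 0.151 by edgeR), and without NaNO3 replicate 1 these were 0.46 and −0.56. With both NH4Cl replicate 3 and NaNO3 replicate 1 left out, the difference from NaNO3 was called, at −0.94 with an adjusted p of 0.0471 by edgeR. The GIT4-named genes BC629DRAFT_1596206 and NewGene_1695 had lower levels, up to 12.7 and 18.9 CPM, both highest in NaNO3 replicate 1, and the GIT1-named gene BC629DRAFT_1588551 stayed at 29.99 to 47.4 CPM.

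The phosphate transporters were mostly scarce. NewGene_1942, named after a putative inorganic phosphate transporter of fission yeast, was the most abundant, with 34.9, 51.8 and 43.0 CPM with NH4Cl, 29.9, 30.1 and 25.0 CPM with NaNO3, and 37.9, 48.8 and 63.3 CPM with water. In CPM all NaNO3 libraries lay below all others. In FPKM this gene's NaNO3 replicate 1, at 32.6, lay above NH4Cl replicate 1, at 30.6, though still below all water libraries. Its log2 fold change in NaNO3 against water was −0.82 ± 0.22 (SE, adjusted p = 0.0659 by edgeR), and DESeq2 called it, at −0.78 with an adjusted p of 0.0249. In NH4Cl against NaNO3 it was 0.61 ± 0.22 (SE, adjusted p = 0.162 by edgeR).

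BC629DRAFT_1110911, named after pho-5, the high-affinity phosphate permease of *Neurospora crassa*, had 9.20, 11.6 and 11.3 CPM with NH4Cl, 10.5, 11.99 and 10.5 CPM with NaNO3, and 7.44, 6.85 and 9.05 CPM with water. In CPM all 6 nitrogen libraries were above all water libraries, but narrowly, with NH4Cl replicate 1 at 9.20 and water replicate 3 at 9.05. In FPKM NH4Cl replicate 1, at 2.8795, lay below water replicate 3, at 2.8852. The log2 fold changes were 0.46 ± 0.16 with NH4Cl and 0.50 ± 0.16 with NaNO3 (SE, adjusted p = 0.173 and 0.104 by edgeR), and DESeq2 called the NaNO3 difference, at 0.54 with an adjusted p of 0.043. The pho-5-named gene BC629DRAFT_1246991 was scarce, with 0.682, 0.911 and 1.07 CPM with NH4Cl, 0.228, 0.394 and 0.448 CPM with NaNO3, and 0.398, 0.450 and 0.503 CPM with water. Its NH4Cl libraries were above all others, with log2 fold changes of 0.98 ± 0.36 against water and 1.31 ± 0.37 against NaNO3 (SE, adjusted p = 0.183 and 0.1 by edgeR).

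BC629DRAFT_1580557, another pho-5-named gene, had 3.35, 7.46 and 3.45 CPM with NH4Cl, 12.6, 2.36 and 9.07 CPM with NaNO3, and 2.74, 3.10 and 3.18 CPM with water. Its log2 fold change in NaNO3 against water was 1.42 ± 0.55 (SE, adjusted p = 0.157 by edgeR), with 1 of the 3 NaNO3 libraries below all water libraries, and 0.93 without NaNO3 replicate 1. The remaining phosphate carriers, the pho-5-named BC629DRAFT_1590382 and NewGene_1707 and the PHO84-named NewGene_1708, had at most 5.96 CPM. NewGene_721, without a product name, had 2.05, 1.99 and 9.45 CPM with NH4Cl, 9.74, 1.91 and 4.14 CPM with NaNO3, and 1.90, 1.80 and 0.838 CPM with water. In CPM all 6 nitrogen libraries were above all water libraries, but narrowly, with NaNO3 replicate 2 at 1.914 and water replicate 1 at 1.904. In FPKM NaNO3 replicate 2, at 2.08, lay below water replicates 1 and 2, at 2.18 and 2.09. The log2 fold changes were 1.56 ± 0.78 for NH4Cl and 1.79 ± 0.77 for NaNO3 (SE, adjusted p = 0.32 and 0.194 by edgeR). The NH4Cl value was 0.45 without NH4Cl replicate 3, and the NaNO3 value 0.99 without NaNO3 replicate 1.

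**Figure D3:**
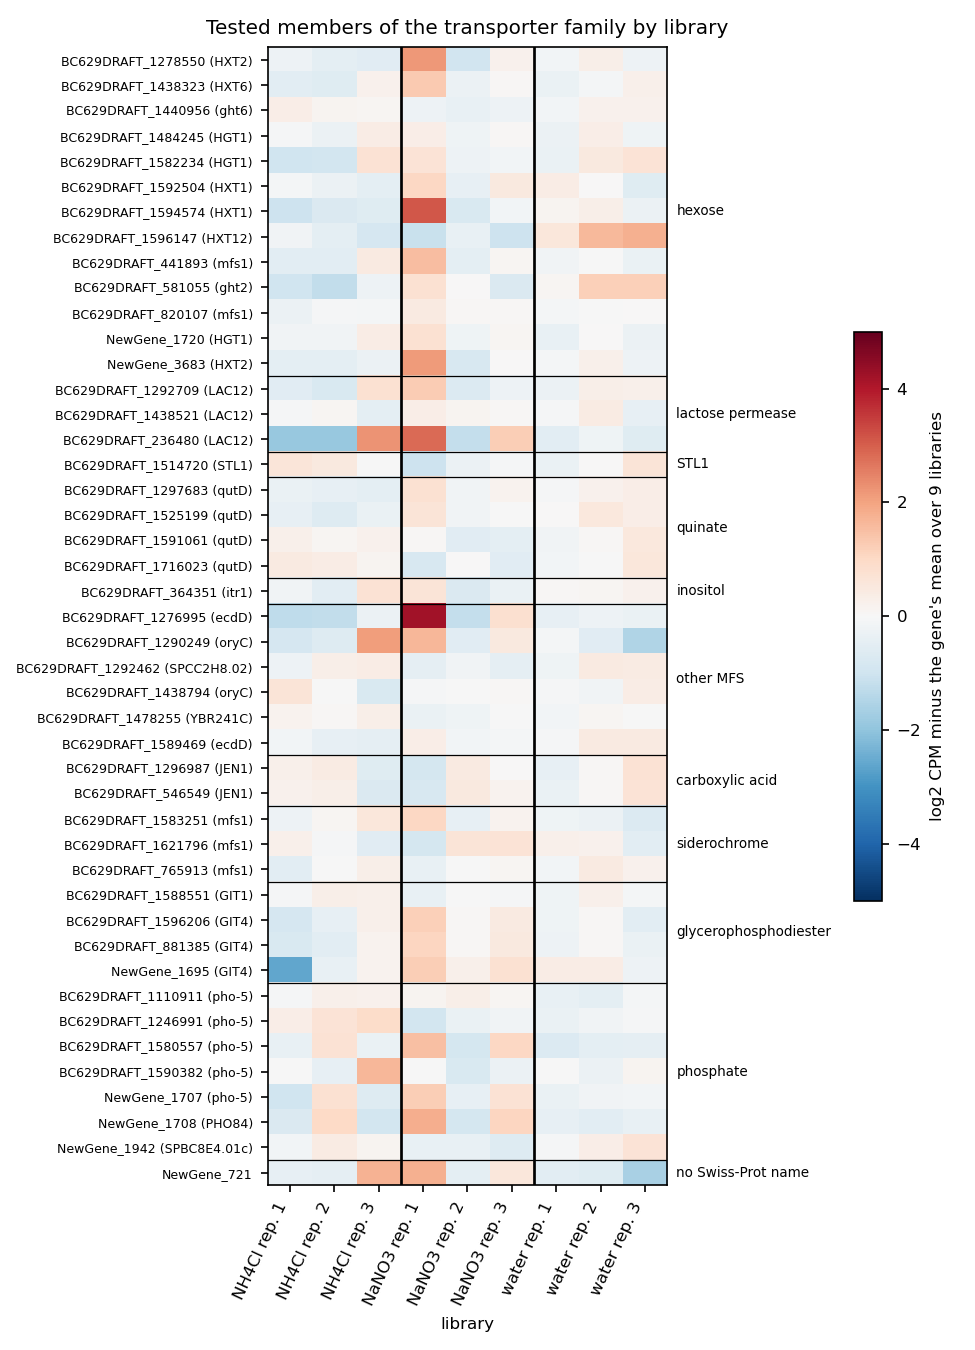
Log2 CPM of each tested member (rows, grouped by product name) in the 9 libraries (columns, NH4Cl, NaNO3 and water from left to right), centred on the gene's own mean over all libraries; red is above and blue below that mean. The column of NaNO3 replicate 1 is red for most hexose carriers and blue for the STL1-named gene and both carboxylic acid carriers.

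Seen by library, NaNO3 replicate 1 stood apart across the family. It was the highest of the 9 libraries for 21 of the 45 tested members, or 46.7%, against 20.5% of all genes tested, and for 8 of the 13 hexose carriers. The members' median lay 0.74 on the log2 scale above the other NaNO3 libraries, against 0.02 for all genes. For 16 members the excess was over 1 on that scale, which held for 8.62% of all genes. For 6 members, or 13.3% against 1.94% of all genes, the level was more than 2 times that of any other library. These were the HXT1-named BC629DRAFT_1594574, both HXT2-named genes, the HXT6-named gene, the mfs1-named BC629DRAFT_441893 and the ecdD-named BC629DRAFT_1276995. In the same library 9 of the 45 tested members were at their lowest, as were 22.8% of all genes.

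Summed over the family, the share of all counts was 0.289%, 0.295% and 0.393% in the NH4Cl libraries, 0.715%, 0.282% and 0.326% in the NaNO3 libraries, and 0.287%, 0.382% and 0.413% in the water libraries. The 95% Wilson interval of the highest, 0.711% to 0.718%, covers counting error only. The summed level was 1821 ± 359 FPKM with NH4Cl, 2395 ± 1266 FPKM with NaNO3 and 1952 ± 380 FPKM with water (SD, n = 3 each), so the groups overlapped. The 13 hexose carriers summed to 365, 380.5 and 698 FPKM with NH4Cl, 1763, 424 and 543 FPKM with NaNO3, and 498, 687 and 664 FPKM with water. The lactose permeases summed to 84.4, 79.0 and 389 FPKM with NH4Cl, 625, 82.7 and 176 FPKM with NaNO3, and 115, 171 and 153 FPKM with water. In these sums the first 2 NH4Cl libraries and the second NaNO3 library lay below every water library.

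**Figure D4:**
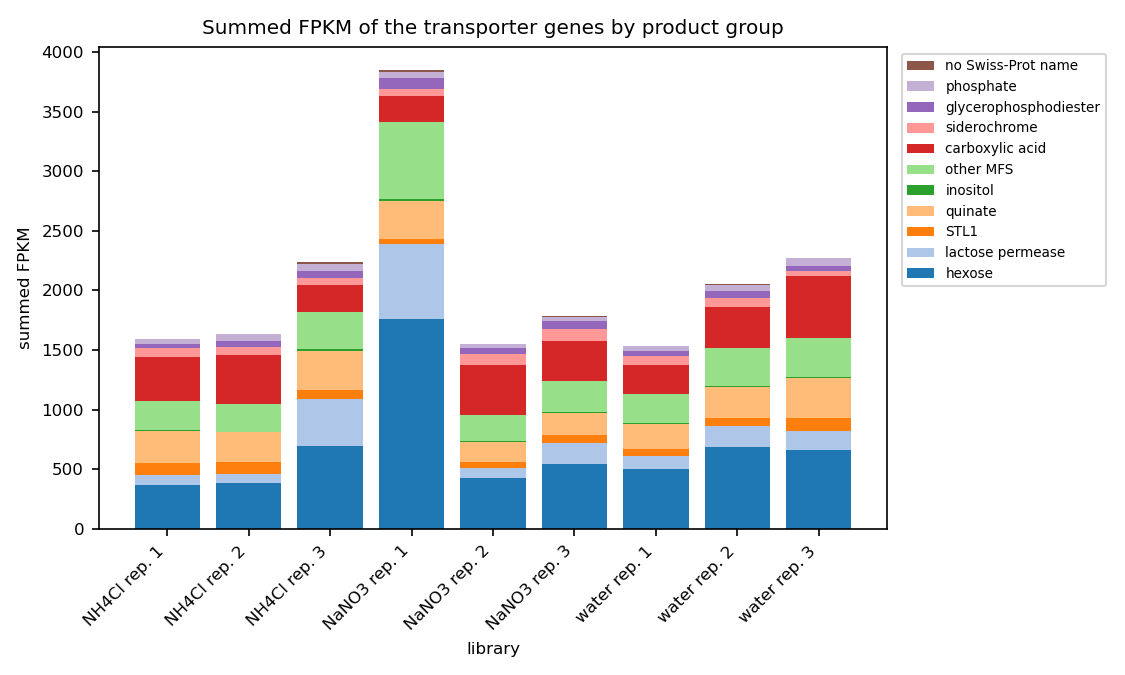
Summed FPKM (y axis, from 0) of the family's members in each of the 9 libraries (x axis, NH4Cl, NaNO3 and water from left to right), stacked by product name. NaNO3 replicate 1 reaches 3850.5 FPKM, of which 1763 come from hexose carriers, while the other 8 libraries lie between 1533.5 and 2274 FPKM.

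Levels of some members moved together over the 9 libraries. Of 990 pairs of tested members, 25 had a Pearson correlation of at least 0.9 in log2 CPM. This is a description over libraries that share their depth and the 3 conditions. The share of such pairs among all genes was not computed. Some of the 25 pairs join members that were more than 2 times as high in NaNO3 replicate 1 as in any other library. In 4 of the 25 pairs the product name was the same. The 2 JEN1-named genes had r = 0.987 and a count ratio of 0.897 to 1.07, and the GIT4-named BC629DRAFT_1596206 and BC629DRAFT_881385 had r = 0.991 and a ratio of 0.168 to 0.206. The HXT2-named pair had r = 0.986 with a ratio of 1.66 to 2.37, and the quinate permeases BC629DRAFT_1297683 and BC629DRAFT_1525199 had r = 0.916 with a ratio of 1.99 to 2.95. Whether the copies in each pair share reads was not tested, so their values may not be separate measurements.

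Genes that act before and after the transporters were looked at in the same fit. Among 8 genes of sugar phosphorylation, the step that traps a sugar inside the cell, 7 were tested. In NaNO3 against water 1 rose and 1 fell, where 1.18% of all genes were called higher and 3.88% lower. Hexokinase-2, NewGene_3213, had 38.5, 43.6 and 53.4 CPM with NH4Cl, 74.5, 59.2 and 56.7 CPM with NaNO3, and 38.6, 35.9 and 32.6 CPM with water, and its log2 fold change in NaNO3 against water was 0.83 ± 0.17 (SE, adjusted p = 0.0361 by edgeR). The D-xylulose kinase BC629DRAFT_13690, which feeds xylose carbon into the pentose phosphate pathway, had 217, 123 and 152 CPM with NH4Cl, 113, 99.7 and 62.8 CPM with NaNO3, and 185, 229 and 291 CPM with water, and fell by 1.36 on the log2 scale in NaNO3 (SE 0.30, adjusted p = 0.042 by edgeR). A second D-xylulose kinase, BC629DRAFT_1580908, had 221 ± 17.99 CPM with NaNO3 and 237 ± 6.08 CPM with water (SD, n = 3 each). The median of the 7 was 0.77 in NaNO3 against water, where that of all genes was −0.03.

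Of 12 genes of pentose and galactose use, 0 were called by edgeR in any of the 3 comparisons. At an unadjusted p under 0.05, 1 of the 12 was higher in NH4Cl against water, where 7.77% of all genes were, and 3 were higher in NaNO3 against water, where 10.8% were, with 0 in NH4Cl against NaNO3. Of 10 genes of glucose sensing, 1 was called, in NaNO3 against water, where 5.06% of all genes were. It is the gene named after RGT1, a repressor of hexose transporter genes in bakers' yeast. This gene, BC629DRAFT_1515137, had 469.6, 87.2 and 142 CPM with NH4Cl, 119, 30.1 and 29.5 CPM with NaNO3, and 772, 1224 and 969 CPM with water, and was lower in NaNO3 than in water (log2 fold change −4.05 ± 0.80, SE, adjusted p = 0.0314 by edgeR).

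A list of 43 genes for sugar release was picked by product words such as beta-glucosidase, which also match enzymes named for glucans. Of these 43, 1 was called, in NH4Cl against NaNO3, where 1.09% of all genes were. It is a glucan 1,3-beta-glucosidase, BC629DRAFT_1289945, with 7.10, 9.45 and 14.3 CPM with NH4Cl and 38.0, 24.5 and 24.0 CPM with NaNO3. Its log2 fold change in NH4Cl against NaNO3 was −1.49 ± 0.28 (SE, adjusted p = 0.048 by edgeR). Of 183 other major facilitators outside the sugar transporter domain, 167 were tested. Of these, 3 fell in NH4Cl against water, where 0.675% of all genes were called in either direction. With NaNO3 against water 2 rose and 13 fell, where 1.18% of all genes were called higher and 3.88% lower. Another 3 were lower with NH4Cl than with NaNO3, where 1.09% of all genes were called in either direction. Their median log2 fold changes were −0.23, −0.17 and −0.00 in the 3 comparisons, beside −0.02, −0.03 and 0.02 for all genes. Those that fell with NaNO3 include 4 itaconate transport proteins, among them NewGene_811, with 17.1 ± 2.60 CPM in NaNO3 and 79.4 ± 24.0 CPM in water (SD, n = 3 each).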

How the data were processed

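Poly-A RNA of *I. lacteus* on wheat straw was sequenced in 9 libraries, and the authors deposited 1 table of 19212 genes. Per the file headers it holds whole-number read counts, taken as unnormalized, FPKM values of the same libraries, and the authors' own DESeq2 log2 fold changes and false discovery rates (other columns). HISAT2 and StringTie are named in the submitters' processing notes, with no versions. The genome build and strand setting are not given in the sources used here. All per-library columns were mapped by name.

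The test was edgeR 4.0.16 on counts (TMM, filterByExpr, glmQLFit, glmQLFTest) in R 4.3.3, all 9 libraries in 1 fit without a block, and p-values were adjusted over all 14808 genes tested. The SE is the unshrunk log2 fold change divided by the square root of F. Levels are TMM-scaled CPM, and FPKM as deposited for levels between genes. Overlap of groups was judged in CPM, and some groups that lay apart in CPM overlapped in FPKM. The scripts were tested on simulated counts. Alternatives were DESeq2 1.42.0, limma 3.58.1 on log2(FPKM + 1) or log2(FPKM + 0.1), RLE scaling, no count filter, 2-group fits, a replicate block and left-out libraries. The sign of the authors' ammonium and nitrate comparison was turned to NH4Cl against NaNO3.

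Members and gene lists were chosen with earlier results of these data known, and the split by role was made from product names. Named members are those called, the 12 highest by mean FPKM, the 8 with the lowest p in a comparison, and the HXT12-named gene; others are named to account for every member. Of related lists, called genes and the 2 highest by FPKM qualify. No label says that replicates came from separate cultures; a p-value therefore reflects only how far these libraries vary, which may be technical. No sequence of these genes was used here.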

Additional observations from a re-analysis of the deposited data

How the results depend on the processing

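The number of members called moved with the tool and with single libraries. In NH4Cl against water, edgeR called 0, DESeq2 2, and edgeR without NH4Cl replicate 3 and NaNO3 replicate 1 called 3; leaving out each library in turn gave 0 to 1. In NaNO3 against water, edgeR called 1, DESeq2 4, and leaving out each library gave 0 to 1. In NH4Cl against NaNO3, edgeR called 0, DESeq2 2, edgeR without both libraries 1, and leaving out each library gave 0 to 0. The cause was not tested. The replicate block gave 0 calls in NaNO3 against water, where the HXT12-named gene had −2.22 with an adjusted p of 0.0547 by edgeR, and changed no other member's call. Replicate numbers were not used as pairs: same-numbered libraries correlated at −0.28 to 0.286 in their deviations from the group means.

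Over all alternatives, the 135 fold changes of the tested members gave 2287 values, of which 12 were newly called and 5 no longer called. A direction turned in 134 of them, none called in either fit and none with an unadjusted p under 0.05 by edgeR with all libraries. The medians kept within the spread in 32 of 33 alternatives, the exception being 0.03 without NaNO3 replicate 1 in NH4Cl against NaNO3. With 3 libraries a group and a common coefficient of biological variation of 0.317, members with wide replicate spread could not be resolved.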
